A study of Mus musculus with 12 samples.

Results

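Transcripts of 10 genes of the BCL2 family were examined in whole BM cells from WT animals and from 3 mutant genotypes. The genes are Bcl2, Bcl2l1, Mcl1, Bcl2a1b, Bax, Bak1, Bcl2l11, Bid, Bbc3 and Pmaip1, taken by gene symbol from a count table of 12199 genes, and all 10 were present. DF mice carried Dnmt3aFlox/+, MxCre and Flt3 ITD/+. TF mice carried Tet2+/- and Flt3ITD/+. TFD mice carried Tet2+/-, Flt3ITD/+, Dnmt3aFlox/+ and MxCre. All were of the C57BL/6 strain, and their ages at sequencing are not given in the labels. In the design of the study all animals, WT included, received poly(I:C), which switches on the interferon-inducible MxCre, so the floxed Dnmt3a allele is lost in every cell type that responds to interferon while the Tet2 and Flt3 alleles are germline. The data came from 3 WT, 3 DF, 3 TF and 2 TFD libraries; TFD replicate 3 was not analysed here. The labels describe the source as BM mononuclear cells, and mature neutrophil markers were nonetheless the most abundant of the marker lists, with a sum of 22300 to 80200 CPM per library (CPM, the counts of a gene scaled to the size of its library).

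BCL2 family proteins decide at the outer membrane of the mitochondrion whether a cell starts apoptosis. BAX and BAK, the effectors, form the pores through which cytochrome c leaves, and the survival proteins BCL2, BCL-XL (from Bcl2l1), MCL1 and A1 (from the Bcl2a1 genes) bind and restrain them. The BH3-only proteins BIM (Bcl2l11), BID, PUMA (Bbc3) and NOXA (Pmaip1) report stress by occupying the survival proteins or by activating the effectors. In blood, MCL1 is needed by granulocytes and stem cells, BCL2 by lymphocytes, and BCL-XL by maturing erythroid cells and platelets. Many leukemias depend on 1 or more of the survival proteins, and BCL2 is the target of the drug venetoclax.

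Bcl2 and Bid rose and Bcl2l1 and Bcl2l11 fell in each mutant genotype relative to WT controls, whereas Mcl1, by far the most abundant survival transcript, did not pass the test in any comparison. Pmaip1 rose in TF and not in DF. Calls were made with the quasi-likelihood F test of edgeR on raw counts, at an adjusted p under 0.05 over all 12175 genes tested. In DF, 4 of the 10 genes rose and 2 fell, a comparison in which 37.6% of all genes tested were called (21% higher and 16.6% lower). In TF, 4 rose and 2 fell, against 34.6% of all genes (19% and 15.6%). In TFD, 2 rose and 2 fell, against 26.3% of all genes (14.7% and 11.6%). The shares of members called therefore sit on a high background, and the 3 comparisons share the same WT libraries. Over the 10 genes the median log2 fold change was 0.10 in DF, 0.37 in TF, with 0.31 in TFD, beside 0.05, 0.02 and 0.01 over all genes. With library totals in place of normalization factors, the split of all genes in DF versus WT turned from 2560 higher and 2023 lower to 1926 higher and 2622 lower, and the members called became 5, without Bbc3.

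**Figure D1:**
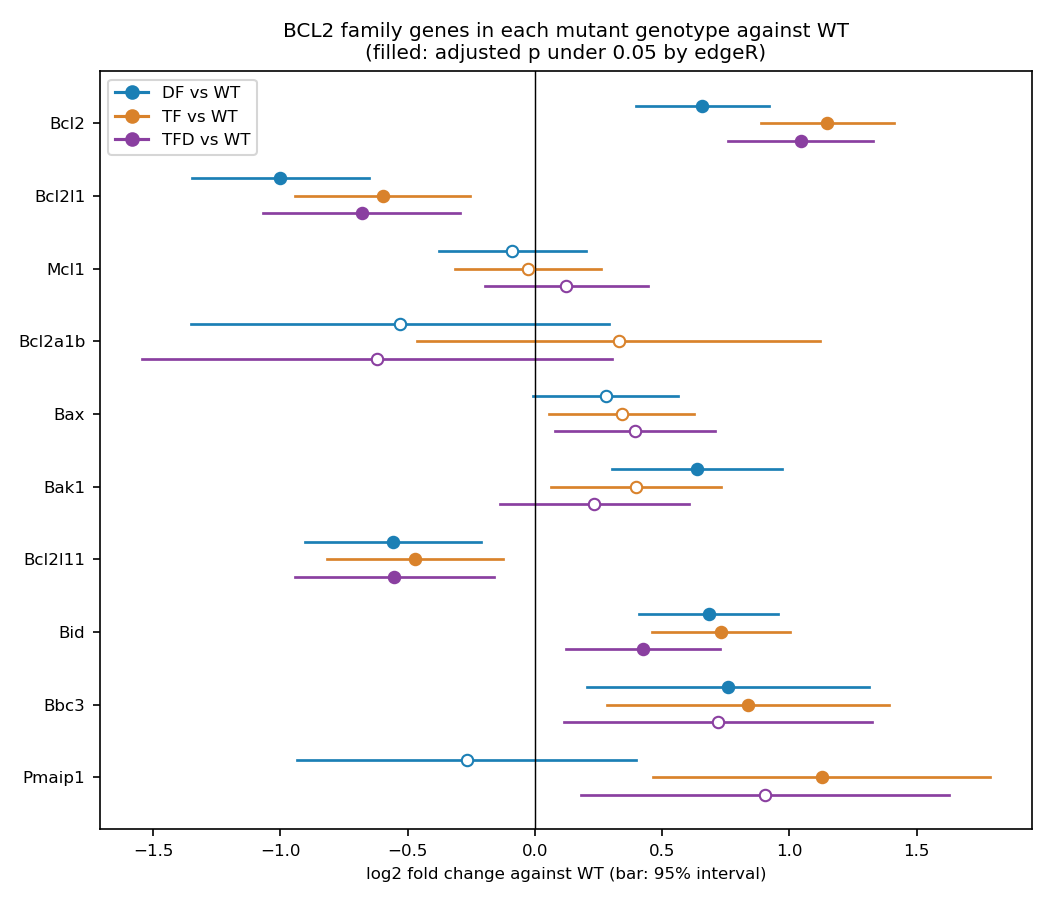
Log2 fold change of each BCL2 family gene against WT (horizontal axis), with the 95% interval as a bar, for DF (blue), TF (orange) and TFD (purple). Filled points passed the test; Bcl2 and Bid lie to the right of 0 and Bcl2l1 and Bcl2l11 to the left in all 3 genotypes, and Pmaip1 lies to the left in DF and to the right in TF and TFD.

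The libraries differed in more than genotype. Gene counts summed to between 8274153 and 15900904 per library, and the counts of the 10 genes ranged from 20 to 11324. Xist, which is made from the inactive X chromosome, had over 10000 counts in WT replicate 3, TF replicate 3 and TFD replicate 2 and at most 538 in the other 8 libraries, all DF libraries among them. The Y-linked gene Ddx3y had 3 to 12 counts in those 3 libraries and 1040 to 2132 in the others, so the WT, TF and TFD groups each held animals of both sexes. Results are therefore also given with a term for these 3 libraries, or without them. Wherever a TFD library is left out, or the 3 libraries with Xist reads, 1 library stands for TFD and is assumed to vary like the other groups. TF replicate 3 stood apart from the other TF libraries in erythroid markers, with a sum of 1700 CPM against 608 and 744, and in B lineage markers, with 94.0 CPM against 24.4 and 26.4. Among the targeted genes, Tet2 was at 136 to 205 CPM in TF, with 163 to 209 in TFD against 148 to 169 in WT, and Dnmt3a was at 38.0 to 46.4 CPM in DF and 54.4 to 58.6 in TFD against 30.9 to 57.8 in WT. These gene-wide levels did not show a loss of transcript and, since it is not given in the sources used here which exons the alleles lack, they do not check the genotypes as labelled. Flt3 rose in each mutant genotype (log2 fold change 0.93, 1.38 and 1.94, adjusted p by edgeR 0.0184, 0.0023 and 0.000552).

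The promoters of the 4 genes that changed in each mutant genotype are shown first; 19.0% of all genes tested were called in all 3 comparisons with WT. Of the 10 genes, 9 had at least 1 entry among the RefSeq promoters used (build GRCm38.p6), with 14 entries in all. Entries on the chromosome of Pmaip1 were not used, so none is given for that gene. Each entry runs for 300 bases, most of them upstream of the start. In Bcl2, Bid and the first start of Bcl2l11, capitals mark GGGCGG or its reverse complement CCGCCC, the GC box recognized by SP1-type factors, with 7, 3 and 3 matches. Of the 32851 promoters used, 35.7% hold a GC box. In Bcl2l1, capitals mark AGATAA (reverse complement TTATCT), a motif of the GATA factors that drive erythroid genes, which 11.2% of all promoters hold and which was found at 1 of the 3 listed Bcl2l1 starts. A match is a description of these letters and does not show binding.
Bcl2, chr1:106714241-106714540, strand -: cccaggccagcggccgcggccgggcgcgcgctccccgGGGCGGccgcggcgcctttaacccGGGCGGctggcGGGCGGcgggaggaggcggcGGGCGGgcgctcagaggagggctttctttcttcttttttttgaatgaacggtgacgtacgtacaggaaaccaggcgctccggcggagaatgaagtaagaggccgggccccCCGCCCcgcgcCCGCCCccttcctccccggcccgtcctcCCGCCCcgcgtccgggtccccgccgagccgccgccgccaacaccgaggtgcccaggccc
Bid, chr6:120916775-120917074, strand -: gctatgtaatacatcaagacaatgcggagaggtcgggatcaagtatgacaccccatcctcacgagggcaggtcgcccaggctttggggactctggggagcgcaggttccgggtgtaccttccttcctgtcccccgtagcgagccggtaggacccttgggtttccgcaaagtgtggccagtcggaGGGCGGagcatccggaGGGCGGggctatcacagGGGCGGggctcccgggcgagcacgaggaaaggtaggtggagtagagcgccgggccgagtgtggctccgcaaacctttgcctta
Bcl2l11, chr2:128125788-128126087, strand +: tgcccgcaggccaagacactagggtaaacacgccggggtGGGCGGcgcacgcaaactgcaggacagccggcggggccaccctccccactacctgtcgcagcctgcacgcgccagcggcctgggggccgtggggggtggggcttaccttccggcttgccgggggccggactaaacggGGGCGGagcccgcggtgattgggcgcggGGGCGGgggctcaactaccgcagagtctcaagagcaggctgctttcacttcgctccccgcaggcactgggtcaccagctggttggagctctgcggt
Bcl2l1, chr2:152828440-152828739, strand -: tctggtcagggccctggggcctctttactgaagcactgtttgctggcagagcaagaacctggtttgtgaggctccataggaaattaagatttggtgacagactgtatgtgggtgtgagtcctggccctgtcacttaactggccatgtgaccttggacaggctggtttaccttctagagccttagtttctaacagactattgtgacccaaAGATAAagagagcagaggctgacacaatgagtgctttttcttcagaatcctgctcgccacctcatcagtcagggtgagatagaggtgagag

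Bcl2 encodes the founding survival protein. It lies on chromosome 1 of mm10 from 106538178 to 106714290, on the minus strand, and its exons sum to 7738 bases. The WT libraries had 38.8, 39.0 and 47.0 CPM, the DF libraries 64.7, 66.7 and 65.5, the TF libraries 95.5, 97.3 and 84.1, and the TFD libraries 75.4 and 96.5. Every mutant library was above every WT library, and every TF library above every DF library. Bcl2 rose 1.58-fold in DF (log2 fold change 0.66 ± 0.12 SE, adjusted p by edgeR 0.0011), 2.22-fold in TF (1.15 ± 0.12, 2.9e-05) and 2.06-fold in TFD (1.04 ± 0.13, 0.00013). B lineage markers, genes of a lineage in which Bcl2 is known to act, fell at the same time in 12 of 12 listed genes in each genotype, from a summed 588 to 757 CPM in WT to 16.3 to 29.4 in DF, 24.4 to 94.0 in TF, with 21.4 to 22.3 in TFD, with Vpreb1, Igll1, Rag1, Pax5 and Fcer2a at 0 counts in at least 1 library. Monocyte markers rose in 9 of 9 genes in DF and TF and in 8 in TFD, from 1940 to 2040 CPM in WT to between 5540 and 6960 in the mutant libraries. The part of these cell types in the rise of Bcl2 was not tested; in bulk RNA, fewer cells of a type and less RNA per cell cannot be told apart.

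**Figure D2:**
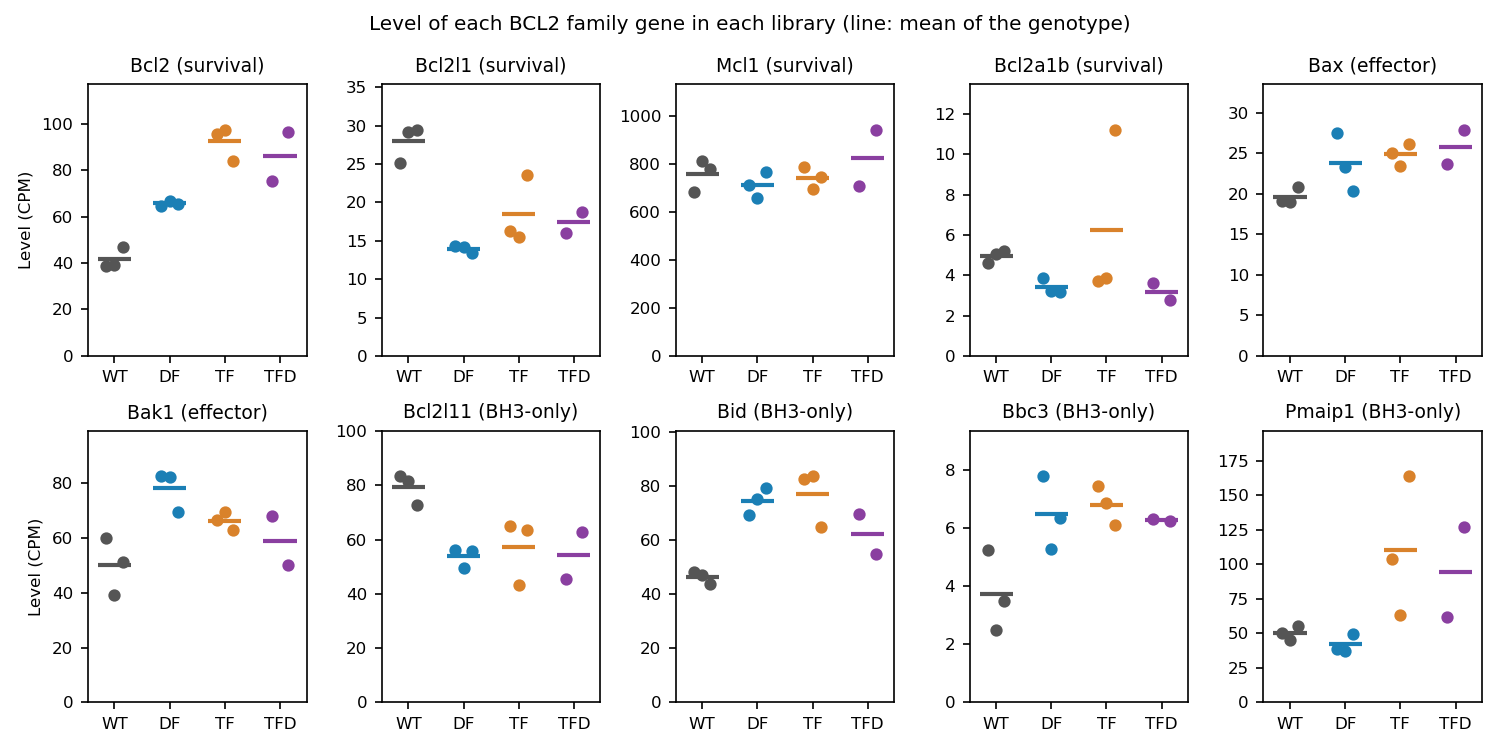
Level in CPM (vertical axes, each from 0) of the 10 genes in each library, with 1 point a library and a line at the mean of each genotype (3 WT, 3 DF, 3 TF and 2 TFD libraries). In Bcl2 all mutant points lie above the WT points, in Bcl2l1 all lie below, and the Pmaip1 points of TF and TFD lie above those of WT and DF.

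Bcl2l1, the gene of BCL-XL, moved the other way. It lies on chromosome 2 from 152758732 to 152831728, on the minus strand. WT libraries had 25.1, 29.2 and 29.5 CPM, DF libraries 14.3, 14.2 and 13.4, TF libraries 16.3, 15.5 and 23.5, and TFD libraries 16.1 and 18.8. No mutant library reached the lowest WT library, and TF replicate 3 came closest. The level was 2.0-fold lower in DF (SE 0.16 on the log2 scale, adjusted p by edgeR 0.000465) and fell on the log2 scale by 0.60 in TF (SE 0.16, 0.0115) and by 0.68 in TFD (SE 0.18, 0.014). In TF the adjusted p was 0.0568 without TF replicate 1 and 0.0526 without TF replicate 2, and in TFD it was 0.107 without TFD replicate 1, where TFD replicate 2 alone stood for TFD. Erythroid markers fell in 10 of 10 genes in DF, 8 in TF, with 8 in TFD, from a summed 1660 to 2190 CPM in WT to 307 to 445 in DF, 608 to 1700 in TF, with 588 to 730 in TFD. TF replicate 3 was the highest mutant library in both that sum and Bcl2l1. It was also the highest mutant library in the sums of B lineage markers (94.0 CPM) and of T and NK markers (84.2 CPM). Megakaryocyte markers, of the lineage that makes platelets, summed to 59.9 to 81.5 CPM in WT, 41.3 to 51.1 in DF, 35.9 to 54.9 in TF, and 132 and 47.1 in the TFD libraries, and of the 5 genes 2 fell in DF and 1 fell in TF. The part of erythroid cells, megakaryocytes and lymphoid cells in the fall of Bcl2l1 was not tested.

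Mcl1 (chromosome 3, from 95658721 to 95663178), whose short-lived protein protects granulocytes, did not pass the test against WT in any genotype. Its libraries ranged from 681 to 812 CPM in WT, 656 to 766 in DF, 697 to 786 in TF, with 708 to 942 in TFD, and all groups overlapped. The 95% intervals of the log2 difference from WT were −0.38 to 0.20 in DF, −0.31 to 0.26 in TF and −0.20 to 0.44 in TFD (adjusted p by edgeR 0.624, 0.893 and 0.575). Per kilobase of exon, the scale on which genes can be compared, Mcl1 stood at 217 ± 20 (SD) in WT, 204 ± 16 in DF, 213 ± 13 in TF, with 237 ± 47 in TFD. It made up 86.7% to 92.9% of the summed survival transcripts (Bcl2, Bcl2l1, Mcl1 and Bcl2a1b) in any library. The lowest share was in TF replicate 3.

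Bcl2 and Bcl2l1 changed places in the order of levels. In WT, Bcl2 stood at 5.01, 5.04 and 6.08 CPM per kilobase and Bcl2l1 at 7.86, 9.14 and 9.22, so that Bcl2 was at 0.551 to 0.659 times the level of Bcl2l1. In DF the ratio was 1.87 to 2.02, in TF 1.48 to 2.59 and in TFD 1.94 to 2.12. Thus Bcl2l1 was the more abundant of the pair in every WT library and Bcl2 in every mutant library. Bcl2a1b, whose counts are uncertain, stood above Bcl2 in every WT library (6.02, 6.64 and 6.80 CPM per kilobase) and below it in the mutant libraries except TF replicate 3 (14.7 against 10.9). Bcl2 also passed Bcl2l11, the transcript of BIM, which BCL2 binds. The ratio of Bcl2 to Bcl2l11 per kilobase was 0.429 to 0.596 in WT, 1.06 to 1.25 in DF, 1.22 to 2.08 in TF, with 1.42 to 1.53 in TFD. These ratios combine changes already tested gene by gene and were given no test of their own.

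**Figure D3:**
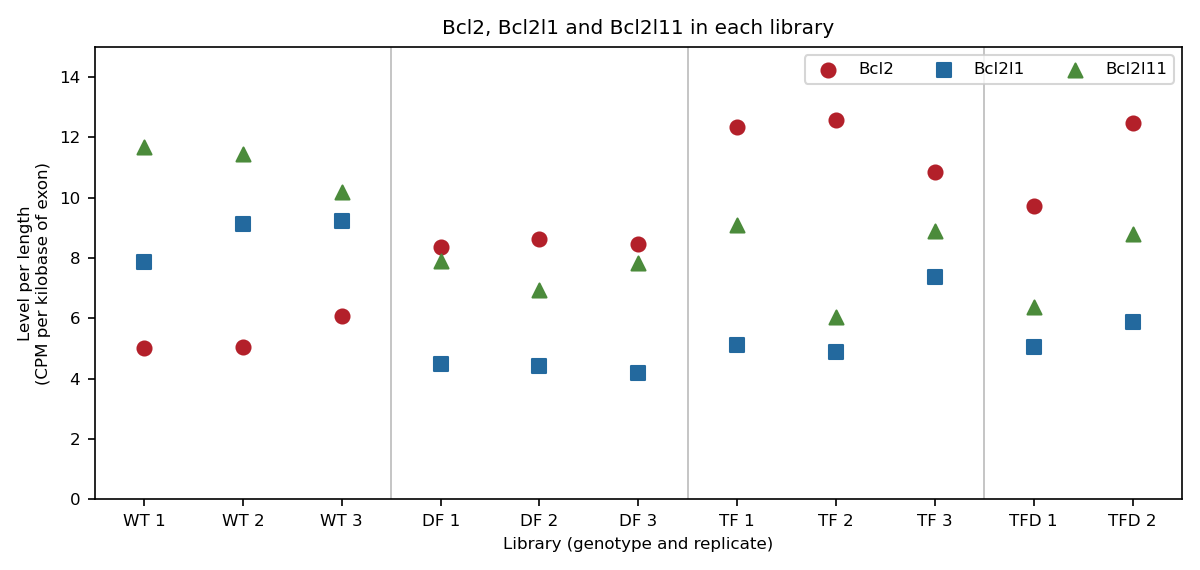
Level per length (vertical axis, CPM per kilobase of exon) of Bcl2 (circles), Bcl2l1 (squares) and Bcl2l11 (triangles) in each of the 11 libraries (horizontal axis). In the 3 WT libraries Bcl2 is the lowest of the 3 genes and in the 8 mutant libraries it is the highest.

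Bcl2a1b encodes a copy of A1, a survival protein of neutrophils and activated lymphocytes, and its counts are uncertain because mice carry several near-identical copies. In GENCODE vM21 transcripts, 57.6% of the 50-base windows of Bcl2a1b also occur in Bcl2a1a or Bcl2a1d, and reads from such windows are lost when only unique alignments are kept. The same likeness is seen upstream. Over 120 bases that begin at GAGGAAGT, a motif of the myeloid factor PU.1 held by 3.2% of the promoters used on either strand, the 3 copies on chromosome 9 differ at 3 positions, which are in capitals.
Bcl2a1a, chr9:88956816-88956935, strand +: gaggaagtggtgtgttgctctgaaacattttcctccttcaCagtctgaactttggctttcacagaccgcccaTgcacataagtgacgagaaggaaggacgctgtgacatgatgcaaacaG
Bcl2a1b, chr9:89199125-89199244, strand +: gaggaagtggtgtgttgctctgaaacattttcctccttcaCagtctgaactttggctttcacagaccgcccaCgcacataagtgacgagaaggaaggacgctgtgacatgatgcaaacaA
Bcl2a1d, chr9:88731835-88731954, strand -: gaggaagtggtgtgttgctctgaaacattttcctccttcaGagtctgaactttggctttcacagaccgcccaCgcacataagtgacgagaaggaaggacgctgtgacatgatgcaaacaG

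WT libraries had 4.60, 5.07 and 5.19 CPM of Bcl2a1b, DF libraries 3.89, 3.22 and 3.17, TF libraries 3.72, 3.84 and 11.2, and TFD libraries 3.63 and 2.76. TF replicate 3 was the only mutant library above WT. No comparison with WT passed the test (log2 fold change −0.53 ± 0.38, 0.33 ± 0.37 and −0.62 ± 0.43, adjusted p by edgeR 0.289, 0.511 and 0.314 in DF, TF and TFD), and without TF replicate 3 the value in TF turned to −0.39. Summed with Bcl2a1a and Bcl2a1d, the level was 6.57 to 6.89 CPM in WT, 5.74 to 7.30 in DF, 6.38, 7.19 and 20.3 in TF, and 7.44 and 7.84 in TFD. The value in TFD then turned from −0.62 to 0.18. Bcl2a1d alone rose in TF and TFD (log2 fold change 1.63 ± 0.44 and 1.40 ± 0.47, adjusted p by edgeR 0.012 and 0.046) from 0.627 to 1.36 CPM in WT, and Bcl2a1a did not pass the test (1.26 ± 0.63 and 1.17 ± 0.69). Bcl2a1d shares 79.5% of its 50-base windows with the other copies, so its counts are uncertain too. Its TF libraries had 2.59, 1.64 and 5.20 CPM, the last in TF replicate 3.

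Of the effectors, Bak1 rose in DF. Bak1 (chromosome 17, from 27019812 to 27028626) had 60.1, 39.4 and 51.1 CPM in WT, 82.6, 82.4 and 69.7 in DF, 66.5, 69.6 and 62.8 in TF and 68.2 and 50.1 in TFD. All DF and TF libraries were above all WT libraries, while the TFD libraries overlapped WT. The log2 fold change was 0.64 ± 0.15 in DF (adjusted p by edgeR 0.0066), 0.40 ± 0.16 in TF (0.064) and 0.23 ± 0.17 in TFD (0.346). The TF value passed without WT replicate 1, TFD replicate 1 or TFD replicate 2 (adjusted p 0.0275, 0.0432 and 0.0431), and the TFD value was −0.01 without TFD replicate 1. Bax (chromosome 7, from 45461695 to 45466898), the other effector, had 19.0, 18.9 and 20.8 CPM in WT, 27.5, 23.4 and 20.4 in DF, 25.0, 23.4 and 26.2 in TF, and 23.7 and 27.9 in TFD. Its log2 fold changes of 0.28 ± 0.13, 0.34 ± 0.13 and 0.39 ± 0.14 did not pass the test (adjusted p by edgeR 0.112, 0.060 and 0.063), with 95% intervals that reached 0.56, 0.63 and 0.71. Bax passed in TF without DF replicate 1 or 3 (adjusted p 0.0487 and 0.0477) and with the Xist term (0.049), and in TFD without DF replicate 3 (0.0459). Per kilobase, the ratio of Bak1 to Bax ranged from 0.779 to 1.53 over all libraries, so the effectors stood at similar levels.

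Among the BH3-only genes, Bid rose and Bcl2l11 fell. Bid, whose protein is cut by caspase-8 and links death receptors to mitochondria, lies on chromosome 6 from 120893119 to 120916820. It had 48.2, 47.2 and 44.0 CPM in WT, 69.3, 75.2 and 79.2 in DF, 82.5, 83.7 and 65.03 in TF, and 69.6 and 54.9 in TFD. Every mutant library was above every WT library. Bid rose 1.61-fold in DF (log2 fold change 0.68 ± 0.13, adjusted p by edgeR 0.0012), 1.66-fold in TF (0.73 ± 0.13, 0.00093) and 1.34-fold in TFD (0.42 ± 0.14, 0.039). The TFD call was lost without any 1 of WT replicates 1, 2 and 3, DF replicate 2, TF replicate 1 or TFD replicate 1 (adjusted p 0.0611, 0.0786, 0.109, 0.0569, 0.0506 and 0.329), and in a model of only TFD and WT (0.0699).

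Bcl2l11 encodes BIM, which removes lymphocytes and cytokine-deprived blood cells, and lies on chromosome 2 from 128126038 to 128162547. WT libraries had 83.3, 81.7 and 72.7 CPM, DF libraries 56.3, 49.4 and 55.9, TF libraries 64.9, 43.2 and 63.4, and TFD libraries 45.5 and 62.8. All mutant libraries were below all WT libraries. The level fell by 0.56 on the log2 scale in DF (SE 0.16, adjusted p by edgeR 0.0155), by 0.47 in TF (SE 0.16, 0.036) and by 0.55 in TFD (SE 0.18, 0.039). The calls were less steady than the separation of the groups. The adjusted p was 0.0656 in DF without DF replicate 2. In TF it was 0.0856, 0.0945 and 0.138 without WT replicate 1, WT replicate 2 and TF replicate 2, and without this last library the fall in TF was 0.30. In TFD it was 0.0856, 0.091, 0.0502, 0.0512 and 0.294 without WT replicates 1 and 2, DF replicates 1 and 2 and TFD replicate 1, where the fall was 0.33.

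Bbc3, the gene of PUMA and a p53 target, lies on chromosome 7 from 16309583 to 16318334 and was the least abundant BH3-only member, at 1.89 ± 0.71 (SD) CPM per kilobase in WT. Its libraries had 5.25, 2.48 and 3.49 CPM in WT, 7.78, 5.28 and 6.33 in DF, 7.43, 6.87 and 6.11 in TF, and 6.32 and 6.24 in TFD. WT replicate 1 lay just below the lowest mutant library. Bbc3 rose in DF (log2 fold change 0.76 ± 0.26, adjusted p by edgeR 0.033) and TF (0.84 ± 0.26, 0.023), and TFD gave 0.72 ± 0.28 (0.076). The DF call was lost with library totals (0.0669), with the Xist term (0.0573), without the Xist-positive libraries (0.111) and without WT replicate 2, WT replicate 3, DF replicate 1 or DF replicate 3 (0.117, 0.117, 0.146 and 0.0676). The TF call was lost without the Xist-positive libraries (0.0629) and without WT replicate 2, WT replicate 3, TF replicate 1 or TF replicate 2 (0.084, 0.0769, 0.0758 and 0.054), and the TFD value passed without WT replicate 1 (1.05, 0.0185).

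Pmaip1 encodes NOXA, which binds MCL1 and speeds its breakdown. WT libraries had 50.2, 45.5 and 55.5 CPM, DF libraries 38.7, 37.6 and 49.8, TF libraries 104, 63.2 and 164, and TFD libraries 62.2 and 127. The TF and TFD libraries were all above the WT and DF libraries, and DF overlapped WT. Pmaip1 rose 2.18-fold in TF (log2 fold change 1.13 ± 0.31, adjusted p by edgeR 0.013), while the values in TFD (0.90 ± 0.33, 0.063) and DF (−0.27 ± 0.31, 0.514) did not pass. TF replicate 3 and TFD replicate 2, the highest libraries, were both among those with Xist reads. In the 8 libraries without Xist reads the log2 fold change was 0.79 in TF (adjusted p 0.0112), 0.37 in TFD (0.31, TFD replicate 1 alone) and −0.24 in DF (0.356). Without WT replicate 2 the adjusted p in TF was 0.0524, and without TF replicate 3 the log2 fold change in TF was 0.73 and still passed. In TFD the value was 0.31 without TFD replicate 2, and it passed without TF replicate 2, TF replicate 3 or TFD replicate 1 (0.0232, 0.0174 and 0.0189, the last with TFD replicate 2 alone for TFD), with the Xist term (0.70, 0.0338) and in a model of only TFD and WT (0.0121).

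The make-up of the BH3-only transcripts differed among libraries. Per kilobase, Bcl2l11 made up 18.2% to 20.9% of the sum of the 4 BH3-only genes in WT libraries, 10.9% to 12.5% in DF, 7.80% to 9.51% in TF, with 9.14% to 9.89% in TFD. Bid made up 41.4% to 45.5% in WT and 58.1% to 62.6% in DF, while TF replicate 3 (31.8%) and TFD replicate 2 (32.6%) lay below the WT range. TF replicate 1 (45.6%) was just above that range, TFD replicate 1 (52.7%) further above it, and TF replicate 2 higher still. The share of Pmaip1 was 22.3% to 26.2% in DF, below the 31.3% to 37.3% of WT, and it was 40.9%, 30.7% and 57.1% in TF and 33.6% and 53.9% in TFD, so that TF replicate 2 lay below the WT range and TFD replicate 1 within it. These shares are descriptions and depend on each other, since they sum to a whole.

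DF and TF mice share Flt3 ITD/+ and differ in which methylation gene was hit, Dnmt3a or Tet2. They also differ in MxCre, which only DF carries, and in an induced against a germline loss, and these cannot be told apart here. Of the 10 genes, 2 separated DF from TF, in a comparison with 5.94% of all genes called (1.67% higher and 4.27% lower in DF). With library totals, the split over all genes moved from 203 higher and 520 lower to 106 and 659. Bcl2 was lower in DF than in TF by 0.49 on the log2 scale (log2 fold change −0.49 ± 0.12, adjusted p by edgeR 0.030). Pmaip1 was lower in DF by a wider margin (−1.39 ± 0.31, 0.021). Both calls held with the Xist term (0.0458 and 0.0127) and without the Xist-positive libraries (−0.59, 0.00536 for Bcl2 and −1.03, 0.00741 for Pmaip1). They were sensitive to single libraries. The Bcl2 call was lost without DF replicate 1, 2 or 3 (adjusted p 0.0736, 0.107 and 0.0788), TF replicate 1 (0.089) or TF replicate 2 (0.0634), and the Pmaip1 call without DF replicate 1, 2 or 3 (0.0694, 0.103 and 0.0518) or TF replicate 3 (0.057). Bcl2l1 was lower in DF than in TF without passing the test (−0.40 ± 0.16, adjusted p 0.187, 95% interval −0.75 to −0.05), beside erythroid markers of which 9 of 10 were lower in DF.

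No member separated TFD from the double mutants. With edgeR, 0 of the 10 genes were called in TFD versus DF, where 0% of all genes tested were called, and 0 in TFD versus TF, where 0.0164% were. At an unadjusted p under 0.05 there were 3 and 2 members, and DESeq2 called 0 and 0. Over all genes the counts at an unadjusted p under 0.05 were 1727 and 1068, and DESeq2 called 258 and 131. The largest difference was again in Pmaip1, which was higher in TFD than in DF (log2 fold change 1.17 ± 0.33, adjusted p by edgeR 0.165, 95% interval 0.45 to 1.89). It passed without TF replicate 3 (0.0338), without TFD replicate 1 (1.60, 0.033, with TFD replicate 2 alone for TFD) and in a model of only these 2 genotypes (0.0436), and without TFD replicate 2 the value was 0.60. For Bcl2 the difference of TFD was 0.39 ± 0.13 from DF (adjusted p 0.225) and −0.11 ± 0.13 from TF (0.873). Mcl1 differed by 0.21 ± 0.15 and 0.15 ± 0.15. With 2 TFD libraries these intervals are wide and do not show that the genotypes are alike.

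The other BCL2 family genes on the lists were examined for the same comparisons. Of 17, 12 were tested, and 3 rose and 1 fell in DF, 4 rose and 2 fell in TF and 2 rose and 2 fell in TFD. Over all genes tested, 37.6%, 34.6% and 26.3% were called in DF, TF and TFD versus WT. Bcl2l14, a distant relative of low level, had 0.411, 0.124 and 0.358 CPM in WT, 1.59, 2.38 and 1.48 in DF, 2.83, 2.95 and 1.37 in TF, and 2.31 and 2.14 in TFD. The WT libraries were all below the 0.5 CPM of the filter, which this gene passed only through the mutant libraries where it was high. Its separation from WT is therefore not independent of the filter. Every mutant library was above every WT library, and the log2 fold changes were 2.51 ± 0.48, 2.89 ± 0.47 and 2.79 ± 0.50 (adjusted p by edgeR 0.0015, 0.00065 and 0.0015). Bad, the BH3-only gene controlled by growth factor signals, rose in DF (0.64 ± 0.16, adjusted p 0.0068) and TF (0.57 ± 0.16, 0.013), with 0.40 ± 0.17 in TFD (0.11). Bnip3, known for mitophagy, rose in DF and TF (0.76 ± 0.18 and 0.62 ± 0.19, adjusted p 0.0068 and 0.021). Bcl2l13 fell in all 3 genotypes by 0.50, 0.47 and 0.51 on the log2 scale (adjusted p 0.0018, 0.0031 and 0.0052). Bcl2l15 fell in TF and TFD by 1.21 and 1.50 (0.040 and 0.036) from a level of 2.48 to 3.49 CPM in WT.

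Genes that act with or downstream of the mitochondrion were counted next, to be read beside the same shares called over all genes. Of 9 mitochondrial partners and released factors, 1 rose and 2 fell in DF, 1 fell in TF and 1 fell in TFD. Cycs, which encodes cytochrome c, rose in DF (log2 fold change 0.47 ± 0.13, adjusted p by edgeR 0.011). Diablo, whose protein relieves caspase inhibition, fell in DF and TFD by 0.43 and 0.42, and Aifm1 fell in TF by 0.45 (adjusted p 0.0055, 0.016 and 0.017). Of 7 apoptosome and caspase genes, 2 rose in each mutant genotype. Casp8, the protease that cuts BID, rose in all 3 genotypes (0.38 ± 0.13, 0.39 ± 0.13 and 0.45 ± 0.14, adjusted p 0.033, 0.031 and 0.030). Casp6 rose in TF and TFD (0.74 ± 0.20 and 0.72 ± 0.22, adjusted p 0.012 and 0.026). Of 5 inhibitors of apoptosis, 3 fell in DF and 1 fell in TFD, led by Birc2, which fell by 0.46 in DF and 0.45 in TFD (0.011 and 0.028). In TF, Birc2 gave −0.31 ± 0.12 (adjusted p 0.062).

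Of 10 death receptors and adaptors, 5 rose in DF, 3 rose and 1 fell in TF, and 4 rose in TFD. The median log2 fold change of the list was 0.36, 0.13 and 0.21, beside the shares called and medians over all genes given above. Mlkl, the executor of necroptosis, rose in DF, TF and TFD, with log2 fold changes of 1.31 ± 0.19, 1.02 ± 0.19 and 0.85 ± 0.21 (adjusted p by edgeR 0.00025, 0.0016 and 0.0098). Its partner kinase Ripk3 rose by 0.76 ± 0.16, 0.60 ± 0.16 and 0.58 ± 0.18 (0.0028, 0.012 and 0.029). The receptors on the list differed in direction. Tnfrsf1b rose in DF, TF and TFD (0.68 ± 0.13, 0.45 ± 0.13 and 0.58 ± 0.14) and Tnfrsf1a rose in DF (0.415 ± 0.14). Tnfrsf10b, a receptor for TRAIL, fell in TF by 1.28 (0.011), and its values in DF and TFD (−0.63 and −0.71) did not pass. Fas gave −0.20, −0.40 and −0.56 in DF, TF and TFD and did not pass. Of 11 tested genes of the p53 list, 4 fell in DF, 4 fell in TF and 1 fell in TFD, and the others did not pass. Trp53inp1 fell by 0.88, 0.83 and 0.96 (0.0068, 0.0098 and 0.012). Phlda3, of low level, fell in DF by 2.36 (0.046) and Perp fell in TF by 1.06 (0.033). The p53 targets Bbc3, Pmaip1 and Bax, which are members here and were not on that list, gave the values above.

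**Figure D4:**
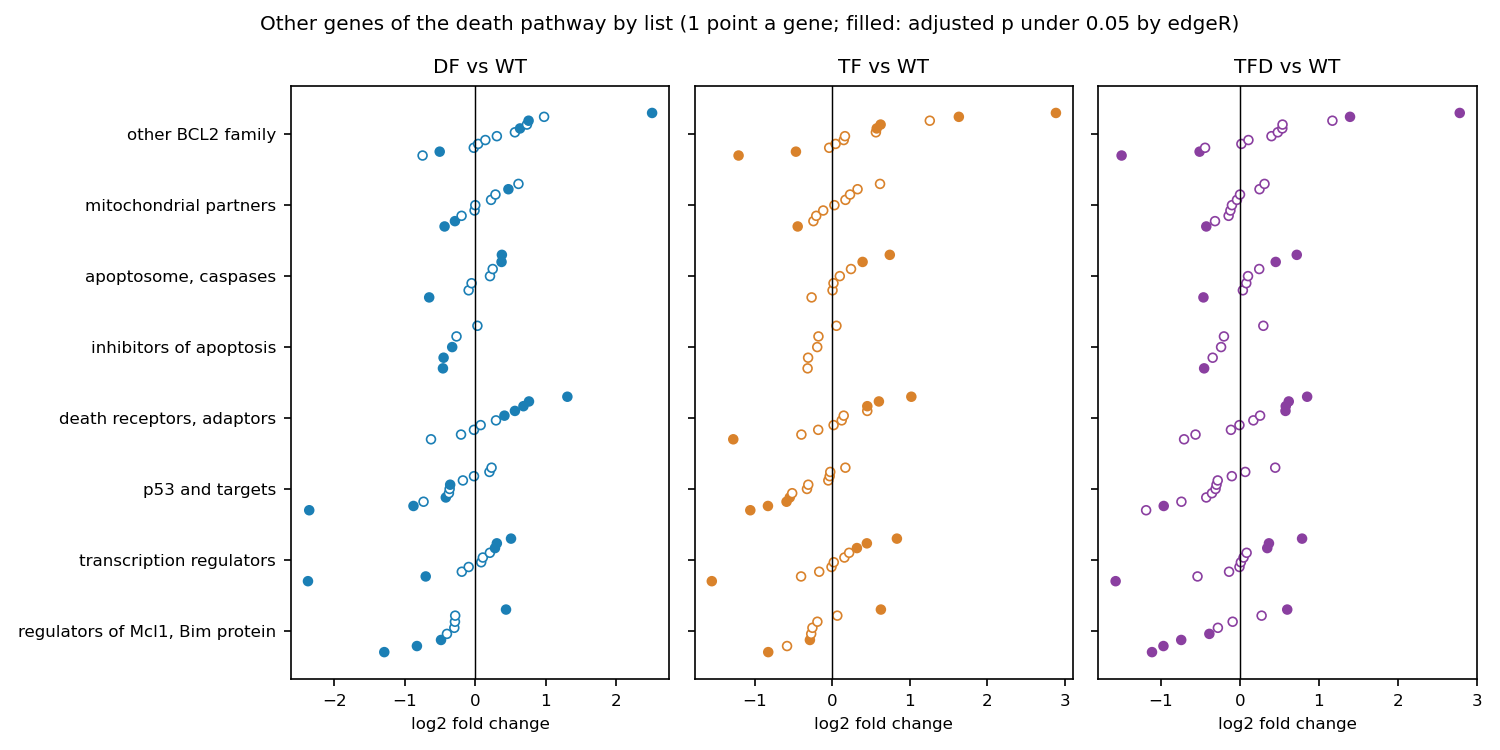
Log2 fold change against WT (horizontal axes) of the other death pathway genes, with 1 point a gene, for DF, TF and TFD. Filled points passed the test; Mlkl is the right-most point of the death receptor list in each panel, and the called points of the p53 list all lie left of 0.

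Regulators of the members were also counted, to be read beside the shares called over all genes given above. Of 10 tested transcription regulators, 3 rose and 2 fell in DF, 3 rose and 1 fell in TF, and 3 rose and 1 fell in TFD. Nfkb1, a regulator of the A1 genes and Bcl2l1, rose most, by 0.51 ± 0.11, 0.83 ± 0.11 and 0.79 ± 0.12 (adjusted p by edgeR 0.0026, 0.00011 and 0.00041). Foxo1, a factor of B cells and a regulator of Bcl2l11 and Bbc3, fell most, by 2.37, 1.56 and 1.57 (0.00015, 0.0023 and 0.0064). B lineage markers fell with it, as given above. Of 8 tested genes that act on MCL1 and BIM protein, 1 rose and 3 fell in DF, 1 rose and 2 fell in TF, and 1 rose and 4 fell in TFD. Pim1, a kinase induced by STAT5, rose in each (0.44 ± 0.16, 0.63 ± 0.16 and 0.60 ± 0.17, adjusted p 0.044, 0.0089 and 0.023), and Btrc, a subunit of a ubiquitin ligase, fell by 1.29, 0.83 and 1.11 (0.0005, 0.0082 and 0.0043). Protein levels were not measured.

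Cell type markers moved with many of these genes. Beside the B lineage, erythroid and monocyte lists above, T and NK markers fell in 7 of 10 genes in DF, 4 in TF, with 5 in TFD, and their sum went from 74.1 to 97.5 CPM in WT to 22.0 to 38.7 in DF, 29.7 to 84.2 in TF, with 24.2 to 27.9 in TFD. Progenitor markers summed to 180 to 205 CPM in WT and to between 269 and 363 in the mutant libraries. Of the 5 genes 2 rose in each genotype, Cd34 and the targeted gene Flt3, while 2 fell in DF and 1 fell in TFD. Cd34 averaged 37.5 CPM in WT and 146, 137 and 130 in DF, TF and TFD. Kit averaged 77.1 CPM in WT and 91.4, 70.7 and 77.0 in the mutants. The means of Ly6a and Sox4 were lower than WT in each mutant genotype. Early granulocyte markers rose in 4 of 4 genes in DF, 1 in TF, with 2 in TFD. Of 9 tested mature neutrophil markers, 3 fell in TF and 1 fell in TFD. Their part in the members' changes was not tested.

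**Figure D5:**
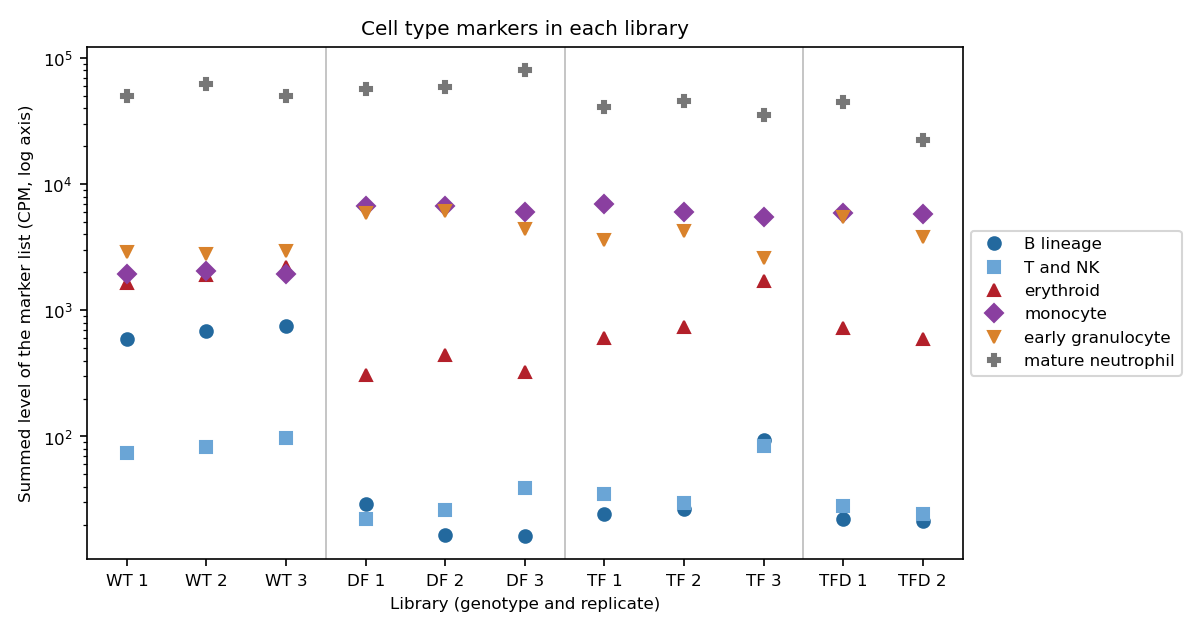
Summed level of 6 marker lists in each library (vertical axis, CPM, log axis; horizontal axis, libraries by genotype and replicate). B lineage sums are lower in every mutant library than in WT and monocyte sums higher. Erythroid sums are lower except in TF replicate 3, which at 1700 CPM lies within the WT range.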

How the data were processed

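RNA was extracted from BM cells with Trizol, treated with DNase, purified, depleted of globin mRNA and made into Illumina TruSeq Stranded Total RNA libraries. Per the labels and the methods of the study, the authors used STAR to align reads to mm10, assigned the uniquely placed ones to refGene models by featureCounts, and retained genes above 0.5 CPM in more than 3 samples; tool versions and the strand setting are not given in the sources used here. The authors deposited raw counts, log2 CPM values and the gene length in bases (a column of another kind) for 12199 genes; edgeR's cpm with a prior count of 0.25 gives the deposited log2 values to within 5e-09. Exons of the members overlapped those of 0 other genes of the table.

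Tests started from the counts. Genes above 0.5 CPM in more than 3 of 11 libraries were kept (12175; 24 removed). One model with a mean for each of 4 genotypes was fitted in R 4.3.3 with edgeR 4.0.16 (TMM factors 0.924 to 1.043, quasi-likelihood F test, Benjamini-Hochberg over all genes tested, called under 0.05). SEs were derived from the F statistic, and 95% intervals from the SE. Levels are TMM-scaled CPM, divided by exon length where genes are compared. The labels do not say whether all replicates are separate animals; Xist and Ddx3y counts show more than 1 animal in WT, TF and TFD, and p-values measure the spread between these samples. Totals of 8274153 to 15900904 counts per library set the counting error. The fit was tested on simulated data before use.

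The members, lists and tests were chosen with earlier results of these data known. Besides the members, the genes named are the other BCL2 family genes called in a comparison or sharing reads with a member, the most changed called gene of each list in each direction and comparison with WT, and the 3 genes most like each member by Pearson's r of log2(CPM + 0.5); Ripk3 was named after its values were seen, and 1 gene that this rule names is not reported here. Alternatives were DESeq2 1.42.0, library totals, RLE factors, no filter, only the genotypes compared, the replicate number as a block, the Bcl2a1 copies summed and each library left out. A term for the 3 libraries with at least 10000 Xist counts, and leaving them out, were added after seeing the data. Figures were drawn with matplotlib 3.10.9 in Python 3.11.15.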

Additional observations from a re-analysis of the deposited data

Results flagged for a closer look

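Bcl2 was flagged because its change differed between the double mutants by the test of the difference itself. The log2 fold change of DF versus TF was −0.49 (SE 0.12, adjusted p by edgeR 0.030), with all 3 DF libraries below all 3 TF libraries. Over all alternatives the adjusted p ranged from 0.0026 to 0.107.

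Pmaip1 was flagged for the same reason, with a log2 fold change of DF versus TF of −1.39 (SE 0.31, adjusted p by edgeR 0.021) and all 3 DF libraries below all 3 TF libraries. Over all alternatives the adjusted p ranged from 0.00245 to 0.103. The highest TF library had Xist reads and no DF library had, and without the libraries with Xist reads the value was −1.03.

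No group had the 4 libraries that a check for single outlying libraries needs.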

How the results depend on the processing

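No member with an adjusted p under 0.05 changed direction under the alternatives run. Leaving out each library in turn gave between 5 and 6 members called in DF versus WT, 3 and 7 in TF versus WT, 2 and 5 in TFD versus WT, 0 and 2 in DF versus TF, 0 and 1 in TFD versus DF, and 0 and 0 in TFD versus TF. In a model of only the genotypes compared, 1 member (Pmaip1) was called in TFD versus DF. DESeq2 called 6, 6, 4, 2, 0 and 0 members in these comparisons. Signs were followed for all members against WT. Between mutant genotypes they were followed only for Bcl2 and Pmaip1, and for Bcl2l1 in DF versus TF. Values that turned sign, none of them called, were Mcl1 in TF (−0.11 to 0.03 over the libraries left out, 0.0253 without WT replicate 2) and TFD (−0.0901 to 0.32, and −0.0789 without Xist-positive libraries), Bcl2a1b in TF (−0.39 to 0.60, and −0.36 without Xist-positive libraries) and in TFD (0.18 with the copies summed), Bak1 in TFD (−0.0081 to 0.44), and, in TFD versus TF, Bcl2 (−0.28 to 0.0637) and Pmaip1 (−0.81 to 0.21). The cause was not tested.

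The replicate numbers did not pair the samples: 3 of 15 same-numbered pairs had a correlation of deviations over 0.1 (range −0.325 to 0.277), and 5 of 11 libraries were closest to one of their own number. With the replicate block, 6, 7, 3, 2, 0 and 0 members were called, with Bak1 in TF (adjusted p 0.0428) and Pmaip1 in TFD (0.0259) gained, Bcl2l11 (0.0767) and Bid (0.0859) in TFD lost, and the log2 fold change of Pmaip1 in TFD versus TF turned to 0.0063 (adjusted p 0.998).

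Over all genes, edgeR called 723 in DF versus TF and between 169 and 934 with a library left out, and DESeq2 called 1072. In TFD versus DF it called 0, against 258 with DESeq2, 135 with only these genotypes, 42 with the block, 149 without Xist-positive libraries and at most 387 on leaving out any 1 library. In TFD versus TF it called 2, against 131, 0, 2, 15 and at most 75, and 22 with the Xist term. Low counts limit Bbc3 and the Bcl2a1 genes.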

Other observations

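For each member, the 3 genes whose log2 level was most like it over the 11 libraries are given as a description; the points share libraries and genotypes, and the ranking was not tested. Bcl2 was most like Il31ra (r = 0.983), Gm11423 (0.976) and Ak8 (0.973). Il31ra, a cytokine receptor subunit, averaged 5.03 CPM in WT, 13.8 in DF, 24.1 in TF, with 21.6 in TFD, so that TF was highest and WT lowest as for Bcl2. Bcl2l1 was most like Il1rl1 (0.991), the receptor for IL-33, Il7r (0.991), the lymphoid cytokine receptor, and Camsap2 (0.989). Il7r averaged 63.8 CPM in WT, 2.15 in DF, 10.3 in TF, with 5.75 in TFD.

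Mcl1 was most like Arf4 (0.941), Pabpc1 (0.923) and Arhgap17 (0.909), and Bcl2a1b was most like Myo3b (0.926), the lymphocyte gene Cd5 (0.923) and A430035B10Rik (0.911). Cd5 averaged 3.33 CPM in WT, 1.25 in DF, 4.32 in TF, with 1.54 in TFD. Bax was most like Scd2 (0.962), Pim3 (0.948) and Nckipsd (0.945), and Bak1 was most like the glycolytic gene Tpi1 (0.970), Zfp64 (0.969) and Gcsh (0.965).

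Among the BH3-only genes, Bcl2l11 was most like Kdm6b (0.954), a histone demethylase gene, Arl5b (0.943) and Fam65a (0.940). Bid was most like Glipr1 (0.992), Cpsf3 (0.975) and Btd (0.974), and Glipr1 averaged 143 CPM in WT, 275 in DF, 287 in TF, with 221 in TFD. Bbc3 was most like Spns1 (0.977), Gnl1 (0.971) and Pelo (0.971). Pmaip1 was most like Ctnna1 (0.975), 5031414D18Rik (0.973) and Bmp2k (0.941), and Ctnna1, an adhesion gene, averaged 103 CPM in WT, 85.7 in DF, 151 in TF, with 133 in TFD.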
